A study of Mus musculus with 9 samples.

Results

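Antipsychotic drugs act on receptors for dopamine, serotonin, acetylcholine and noradrenaline, and this account follows the mRNA of 10 such receptor genes in the mouse forebrain. They are the dopamine receptor genes Drd2, Drd3 and Drd4, the serotonin receptor genes Htr2c, Htr1b and Htr3a, the muscarinic acetylcholine receptor genes Chrm1 and Chrm4, and the adrenergic receptor genes Adra1b and Adra2a. Members were all probe sets whose platform gene symbol is one of these 10, which gave 9 probe sets of 12422 and 9 genes of 8251 with a single symbol, 1 probe set for each gene other than Adra2a, which was not analysed here. Of the 9, 3 lay above a log2 value of 3.45 averaged over all arrays, the 40th percentile of all probe sets, and the other 6 are described as near the floor.

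RNA came from the forebrain of male C57BL mice, labelled as 4 weeks old, on Affymetrix U74Av2 arrays, with 3 animals per group and 1 animal per array. Mice drank water with clozapine at 12 mg/kg/day, water with haloperidol at 1.6 mg/kg/day or water with no drug for 4 weeks, after 2 weeks of acclimatisation, and all were housed singly. The study had 30 animals, 10 per treatment, of which 9 were arrayed. The titles name the right side of the brain and the tissue entry the left hemisphere, so the side was not settled. The doses of the 2 drugs differ, and both drugs were compared with the same 3 untreated animals.

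Most of these receptors are G protein-coupled: the products of Drd2, Drd3, Drd4, Htr1b and Chrm4 couple to inhibitory G proteins that lower cyclic AMP, and those of Htr2c, Chrm1 and Adra1b couple to phospholipase C. The product of Htr3a is an ion channel opened by serotonin. Haloperidol is a typical antipsychotic that chiefly blocks dopamine D2-like receptors, while clozapine, an atypical one, binds many receptors of all these families. A tissue block holds many cell types, so fewer cells that express a receptor and less of its mRNA per cell cannot be told apart here.

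Markers of the labelled tissue were detected: the striatal neuropeptide genes Penk and Tac1 lay between 11.26 and 11.86 and between 8.80 and 9.11 log2 units on the 9 arrays, and the cortical gene Tbr1 between 9.97 and 11.22. Rgs9 of the striatum and Neurod2 of cortical neurons were near the floor, as was Slc6a3, the dopamine transporter of midbrain neurons. Array medians ranged from 4.02 to 4.21. Control replicate 3 stood apart on the first principal component, at 37.51 against -19.75 to 7.0 on the other 8 arrays, and the 3′ control probe sets of its Actb and Gapdh exceeded the 5′ ones by 1.73 log2 units, the largest such gap, while the other arrays lay at 0.81 to 1.46. Haloperidol replicate 3 alone carried pituitary hormone transcripts, with growth hormone (Gh) at 12.57 against 1.07 to 1.28 on the other arrays. Results that rest on these 2 arrays are given with and without them.

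Chrm1 had no sequence before its transcription start in the set used here. The sequences before the transcription starts of Drd2 and Htr2c, the other members past the filter, are shown, and these sequences differ in base composition. Each is the 250 bases before the start in RefSeq on GRCm38.p6, on the plus strand, and capitals mark a GC box (GGGCGG) or a CCAAT box, searched on both strands. The Drd2 window is chr9:49340153-49340402 and the Htr2c window chrX:146962263-146962512.
Drd2: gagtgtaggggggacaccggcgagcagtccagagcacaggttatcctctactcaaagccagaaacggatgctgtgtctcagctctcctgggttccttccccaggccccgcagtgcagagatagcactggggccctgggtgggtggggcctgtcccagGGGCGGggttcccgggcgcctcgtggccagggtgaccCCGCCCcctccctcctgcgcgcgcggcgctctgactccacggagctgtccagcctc
Htr2c: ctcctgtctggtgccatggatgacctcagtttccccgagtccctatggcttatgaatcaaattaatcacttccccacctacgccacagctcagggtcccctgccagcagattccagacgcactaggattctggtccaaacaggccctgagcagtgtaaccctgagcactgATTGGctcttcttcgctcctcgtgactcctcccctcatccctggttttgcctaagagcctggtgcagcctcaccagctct
The Drd2 window had 68.8% G and C and 2 GC boxes, and the Htr2c window 55.6% and 1 CCAAT box, beside a median of 52.4% over 32851 RefSeq windows of the same length. A GC box occurred in 32.7% of those windows and a CCAAT box in 33.8%, and a match is a description of letters, not evidence of binding.

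Drd2 encodes the D2 receptor of striatal neurons, of dopamine neurons themselves and of the prolactin cells of the pituitary, and it is the main target of haloperidol. Its probe set, 97776_at, read 5.36, 5.37 and 4.81 log2 units in the untreated mice, 5.52, 5.34 and 5.31 with clozapine, and 5.31, 5.34 and 5.72 with haloperidol. Apart from the low control replicate 3 and the high haloperidol replicate 3, the other 7 arrays spanned only 0.21 log2 units, and the ranges of the 3 treatments overlapped. Group means were 5.18 ± 0.32 (SD, n = 3) without drug, 5.39 ± 0.11 with clozapine and 5.46 ± 0.23 with haloperidol. In that order no neighbours differed beyond their spread.

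The clozapine mean of Drd2 lay 0.21 ± 0.18 log2 units (SE) above the controls (95% confidence interval -0.20 to 0.62), and limma gave an adjusted p of 1. Without control replicate 3 the difference was 0.02. With haloperidol Drd2 lay 0.28 ± 0.18 above the controls (-0.13 to 0.69, limma adjusted p = 0.647), and 0.10 without control replicate 3 and 0.15 without haloperidol replicate 3. Haloperidol replicate 3 was the array with pituitary transcripts: prolactin (Prl), at 11.76, Pomc, at 10.31, Cga, at 7.63, and Tshb, at 6.14, were high there, while Lhb, at 0.79, lay near the floor on all 9 arrays. On the other 8 arrays Prl lay between 3.38 and 3.84, and the correlation of Drd2 with Prl was 0.56 over the 9 arrays, 0.88 without control replicate 3 and -0.70 without haloperidol replicate 3, so its sign rested on that 1 array. The part of pituitary transcripts in the Drd2 value was not tested. Between the drugs Drd2 differed by -0.07 ± 0.18 (-0.48 to 0.34, clozapine minus haloperidol, limma adjusted p = 0.9998), and by 0.06 without haloperidol replicate 3.

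Htr2c encodes a serotonin receptor of neurons and of the choroid plexus that clozapine binds. Its probe set, 97692_at, read 5.09, 4.99 and 4.49 in the untreated mice, 5.63, 5.20 and 4.54 with clozapine, and 4.78, 5.06 and 5.78 with haloperidol. Each drug group held both low and high animals, and the range within each treatment exceeded the differences between treatment means. The means were 4.86 ± 0.33 (SD, n = 3) in the controls, 5.12 ± 0.55 with clozapine and 5.21 ± 0.51 with haloperidol.

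The Htr2c differences from the controls were 0.27 ± 0.34 log2 units (SE) for clozapine (95% confidence interval -0.52 to 1.05, limma adjusted p = 1) and 0.35 ± 0.34 for haloperidol (-0.43 to 1.13, limma adjusted p = 0.792). Without control replicate 3 they were 0.08 and 0.17, and without haloperidol replicate 3, the highest Htr2c array, the haloperidol difference was 0.07. The clozapine difference was 0.01 without clozapine replicate 1 and 0.56 without clozapine replicate 3, and the haloperidol difference was 0.56 without haloperidol replicate 1. Clozapine minus haloperidol was -0.09 ± 0.34 (-0.87 to 0.70, limma adjusted p = 0.9998), and without haloperidol replicate 3 it was 0.20. Of the choroid plexus markers, 3 of 4 analysed were past the filter, Ttr, Kl and Folr1, with Aqp1 near the floor. Their mean lay between 6.69 and 6.89 in the controls, 6.59 and 6.94 with clozapine, and 6.36 and 7.14 with haloperidol. The Pearson correlation of Htr2c with that mean was 0.02 over the 9 arrays, 0.15 without control replicate 3 and -0.56 without haloperidol replicate 3.

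Chrm1 encodes the main muscarinic receptor of cortical and hippocampal pyramidal neurons and varied most among the members past the filter. Its probe set, 101829_at, read 6.24, 5.64 and 4.29 in the untreated mice, 6.69, 6.14 and 6.03 with clozapine, and 6.01, 5.88 and 6.43 with haloperidol. Control replicate 3 lay 1.35 log2 units below the next lowest array, and control replicate 1 lay within the range of both drug groups. The range of Chrm1 over the 9 arrays, 2.40 log2 units, was wider than that of 98.4% of the 7453 probe sets past the filter. For Htr2c, with a range of 1.29, and Drd2, with 0.91, these shares were 89.3% and 74.4%.

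The Chrm1 means were 5.39 ± 1.0 (SD, n = 3) in the controls, 6.10 ± 0.29 with haloperidol and 6.29 ± 0.35 with clozapine. The clozapine mean lay 0.90 ± 0.45 log2 units (SE) above the controls, a fold of 1.86 (95% confidence interval -0.14 to 1.94 log2 units), with a limma adjusted p of 1. With haloperidol the difference was 0.72 ± 0.45, a fold of 1.64 (-0.32 to 1.76, limma adjusted p = 0.641). These values rested on the control arrays: without control replicate 3 they were 0.35 and 0.17, and without control replicate 1 they were 1.32 and 1.14 (limma adjusted p = 0.999 and 0.485). Without haloperidol replicate 3 the haloperidol difference was 0.55. Clozapine minus haloperidol was 0.18 ± 0.45 (-0.86 to 1.22, limma adjusted p = 0.9998), -0.02 without clozapine replicate 1 and 0.34 without haloperidol replicate 3.

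**Figure D1:**
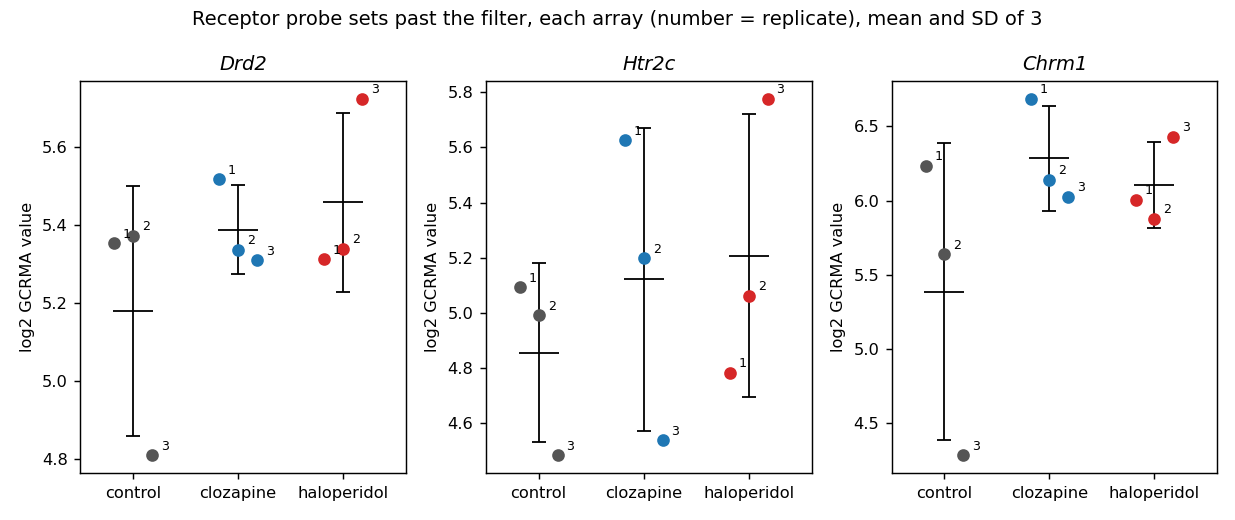
Log2 values of the Drd2, Htr2c and Chrm1 probe sets on each array, grouped by treatment, with replicate numbers beside the points and the mean and SD of 3 arrays as black bars. Control replicate 3 is the lowest point in all 3 panels, and the treatments overlap in each.

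Across the 3 treatments, limma's moderated F test gave adjusted p-values of 0.9999 for Chrm1, Htr2c and Drd2, with unadjusted p of 0.172, 0.581 and 0.319. In the contrasts of clozapine and of haloperidol with the controls, and between the drugs, 0 of 3 members past the filter passed an adjusted p of 0.05 in limma, where 0% of 7453 probe sets passed in each contrast. At an unadjusted p under 0.05 there were also 0 of 3 members in each contrast, beside 0.939%, 9.12% and 3.64% of all probe sets. The ranges of 3 and 3 arrays lay apart for 0 of 3 members in each contrast, beside 3.43%, 21.7% and 17.1%. The means of 3 of 3 members were higher than the control means under each drug, by a median of 0.27 and 0.35, against 49.5% and 46.4% of all probe sets and medians of -0.0013 and -0.02. With each array centred on its median, these shares were 51.5% and 67.6%, and Drd2, Htr2c and Chrm1 kept their direction. The intervals allow changes in either direction, so no absence of an effect is shown. With 3 arrays per group, 0.1 is the smallest two-sided p that an exact permutation test allows.

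**Figure D2:**
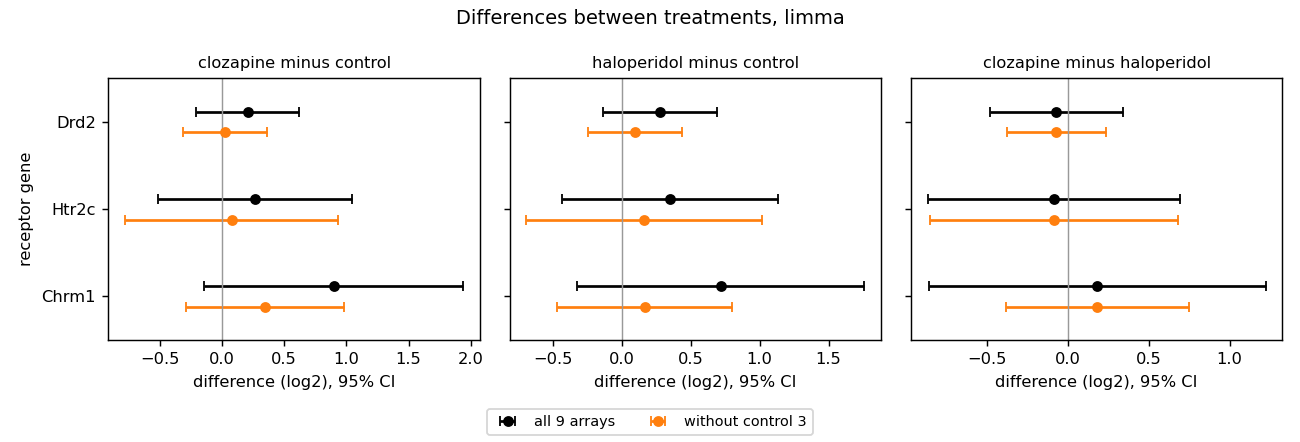
Differences of the Drd2, Htr2c and Chrm1 probe sets between treatments in log2 units, with 95% confidence intervals from limma, over all 9 arrays (black) and without control replicate 3 (orange). All intervals cross 0, and the Chrm1 difference of clozapine from the controls goes from 0.90 to 0.35 without that array.

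The 3 members past the filter had their lowest values on the same animal and their highest on 1 of 2 others, and both drug groups are set against the same controls. Control replicate 3 was the lowest array for 3 of 3, as it was for 22.4% of all probe sets past the filter, and clozapine replicate 1 or haloperidol replicate 3 was the highest for 3 of 3, beside 21.5%. Over the 9 arrays the Pearson correlation was 0.90 between Chrm1 and Drd2, 0.83 between Htr2c and Drd2 and 0.72 between Chrm1 and Htr2c. Over the 8 arrays without control replicate 3 these were 0.63, 0.87 and 0.71, and without haloperidol replicate 3 they were 0.95, 0.74 and 0.72. The points are animals of 3 treatments that share array-wide differences, and these values are descriptions.

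Over the 9 arrays Chrm1 varied with some markers of cortical and hippocampal excitatory neurons and not with others. Of the 6 such markers analysed, 5 were past the filter, Nrgn, Camk2a, Neurod6, Tbr1 and Nptx1, and Neurod2 was near the floor. Their mean ranged from 7.50 to 8.80 log2 units in the controls, from 8.29 to 8.77 with clozapine and from 8.17 to 8.51 with haloperidol. Its correlation with Chrm1 was 0.93 over 9 arrays and 0.87 without control replicate 3, beside 0.63 and 0.45 for Htr2c and 0.76 and 0.37 for Drd2. Camk2a, the kinase subunit of excitatory synapses and named after its values were seen, read 3.87 in control replicate 3, 8.99 and 6.69 in the other controls and 7.44 to 9.42 in the drug-treated mice. Its own correlation with Chrm1 was 0.96, and those of Nptx1 and Nrgn were 0.89 and 0.44, while Neurod6 and Tbr1 gave -0.34 and -0.46. The value for the mean thus leans on Camk2a, which varied most. Without control replicate 3 Camk2a gave 0.85, Nptx1 0.69, Nrgn 0.82, Neurod6 0.22 and Tbr1 -0.345. The low value of Nrgn and the sign of Neurod6 over 9 arrays thus rested on that array. Drd2 had a correlation of 0.19, or -0.13 without haloperidol replicate 3, with the mean of the striatal markers Penk, Tac1 and Pdyn, which ranged from 8.58 to 8.79 over all arrays.

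The gap between 3′ and 5′ control probe sets also moved with these receptors, with correlations of -0.86 for Chrm1, -0.72 for Htr2c and -0.80 for Drd2 over 9 arrays, and of -0.69, -0.60 and -0.52 over the 8 without control replicate 3. Without haloperidol replicate 3 they were -0.85, -0.66 and -0.77. A larger gap means that less of the 5′ part of transcripts was labelled. The first principal component gave -0.90 for Chrm1, -0.80 for Htr2c and -0.90 for Drd2, and -0.72, -0.76 and -0.72 without control replicate 3. The mean of the 3 cerebellum markers past the filter, of 5 analysed, gave -0.74, -0.73 and -0.77 for Chrm1, Htr2c and Drd2. Without control replicate 3 these were -0.345, -0.62 and -0.46. In the same order Zic1 gave -0.74, -0.78 and -0.73 and Pcp2 -0.23, -0.32 and -0.49, while Calb1 gave 0.29, 0.49 and 0.405. Cbln1 and Gabra6 were near the floor. The cerebellum mean ranged from 8.50 to 8.87 in the controls, from 8.58 to 8.71 with clozapine and from 8.56 to 8.78 with haloperidol. The mean of the 9 interneuron markers past the filter, of 10 analysed, gave 0.53, 0.68 and 0.67, and 0.39, 0.605 and 0.65 without control replicate 3. It ranged from 8.23 to 8.49 in the controls, from 8.21 to 8.56 with clozapine and from 8.31 to 8.49 with haloperidol. Single interneuron markers differed in sign. They ran from -0.94 (Gad2) to 0.89 (Cck) with Chrm1, from -0.51 to 0.73 with Htr2c and from -0.82 to 0.84 with Drd2, with the same genes at the ends. Without control replicate 3 Gad2 gave -0.64, -0.15 and -0.22 in that order of receptors, and Cck 0.65, 0.64 and 0.54. Pvalb was then the lowest with Htr2c, at -0.33. The part of the gap, of the array-wide component and of these marker lists in the receptor values was not tested.

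**Figure D3:**
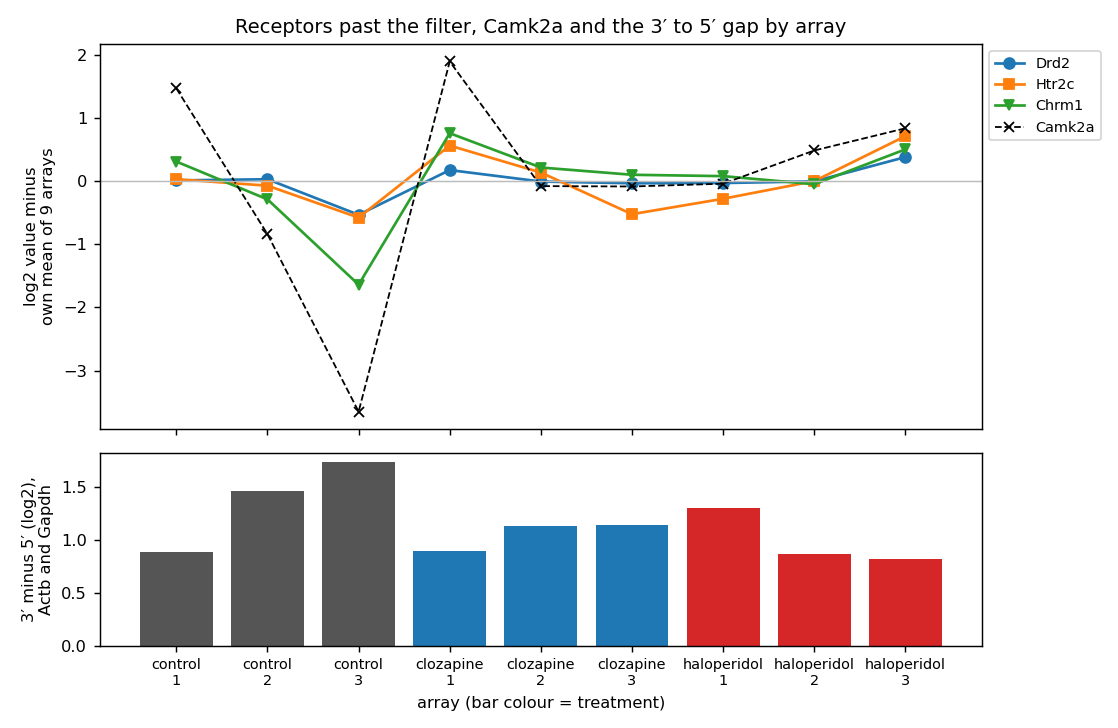
Top, log2 values of Drd2, Htr2c, Chrm1 and Camk2a on each array minus their own mean of 9 arrays. Bottom, the mean 3′ minus 5′ difference of the Actb and Gapdh control probe sets in log2 units, with bars coloured by treatment, which was largest in control replicate 3, at 1.73, where all 4 genes were lowest.

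The genes whose pattern was most like each member were sought among 5649 other genes past the filter by Pearson correlation over the 9 arrays. For Chrm1 they were Adcy6, an adenylyl cyclase, at 0.98 (0.91 without control replicate 3), BC031181 at 0.98 (0.89) and Stx6, a membrane fusion protein, at 0.97 (0.89). For Htr2c they were Luc7l2, a splicing factor, at 0.98 (0.98), Camk2d, a calcium-dependent kinase subunit, at 0.97 (0.99), and Nr3c1, the glucocorticoid receptor, at 0.96 (0.95). For Drd2 they were Smc6, of the chromosome maintenance complex, at 0.99 (0.98), Cd74, the invariant chain of antigen presentation, at 0.97 (0.93), and Gabra3, a GABA-A receptor subunit, at 0.97 (0.91). The highest of so many correlations over 9 points are high by selection and are given as a description.

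The other 6 receptors, Drd3, Drd4, Htr1b, Htr3a, Chrm4 and Adra1b, lay near the floor on every array. Drd3, of the limbic striatum, read 1.83, 1.81 and 1.84 without drug, 1.82, 1.91 and 1.80 with clozapine, and 1.77, 1.78 and 1.71 with haloperidol. Drd4, a D2-like receptor of the cortex, read 1.22, 1.19 and 1.21, then 1.20, 1.28 and 1.19, and then 1.16, 1.18 and 1.14 in the same order of groups. For both genes the haloperidol group lay wholly below the controls, by less than 0.1 log2 units. The same held for the direction of 88.4% of the 4969 probe sets below the filter.

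Htr1b, a receptor on axon terminals that limits transmitter release, read 1.71, 1.69 and 1.71 in the controls, 1.70, 1.79 and 1.68 with clozapine, and 1.65, 1.67 and 1.60 with haloperidol. Htr3a, the serotonin-gated channel of a class of cortical interneurons, read 2.93, 2.91 and 2.93, then 2.90, 3.04 and 2.90, and then 2.87, 2.89 and 2.79. The same 2 arrays stood out as for the dopamine receptors, clozapine replicate 2 as the highest and haloperidol replicate 3 as the lowest.

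Chrm4, a muscarinic receptor of striatal neurons, read 1.80, 1.77 and 1.80 in the controls, 1.78, 1.88 and 1.76 with clozapine, and 1.73, 1.76 and 1.72 with haloperidol. Adra1b, a noradrenaline receptor, read 2.96, 2.93 and 2.95, then 2.95, 3.01 and 2.93, and then 2.90, 2.91 and 2.87. These levels do not show that the genes are silent, because a receptor made by few cells of a forebrain can fall below what the array detects.

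The 6 haloperidol values have to be read against the other low probe sets. In 6 of 6 the 3 haloperidol arrays lay below all 3 controls, by 0.05 to 0.07 log2 units, and below all 3 clozapine arrays, by 0.06 to 0.10. Of the 4969 probe sets below the filter, however, 88.4% had haloperidol wholly below the controls, with a median difference of -0.09, and 83% had clozapine wholly above haloperidol, with a median of 0.10. Clozapine against the controls gave ranges apart in 0 of 6, beside 0.221% of low probe sets, and differences of 0.01 to 0.03. Clozapine replicate 2 was the highest array and haloperidol replicate 3 the lowest for 6 of 6 receptors, as for 82.6% of the low probe sets.

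The near-floor receptors thus carried the array pattern of the low probe sets as a whole. The correlation of each with the median profile of those probe sets over the 9 arrays was 0.962 for Chrm4, 0.972 for Drd4, 0.976 for Adra1b, 0.985 for Htr3a, 0.993 for Htr1b and 0.997 for Drd3. The lower and upper quartiles over the low probe sets were 0.935 and 0.992, whereas Chrm1, Htr2c and Drd2 gave -0.24, -0.30 and -0.49. When each array was centred on the median of the low probe sets, the direction turned: 6 of 6 receptors then had haloperidol above the controls, by 0.02 to 0.04 log2 units, with 29.4% of all low probe sets wholly above and 23.5% wholly below. Clozapine then lay lower than haloperidol in 6 of 6, by mean differences of -0.04 to -0.0014, and wholly lower in 4 of 6, beside 25.7% of all low probe sets wholly lower and 21.1% wholly higher. In the fit with no filter, limma gave these 6 adjusted p-values of 0.368 to 0.464 for haloperidol against the controls, of 0.282 to 0.323 between the drugs and of 1 for clozapine against the controls.

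**Figure D4:**
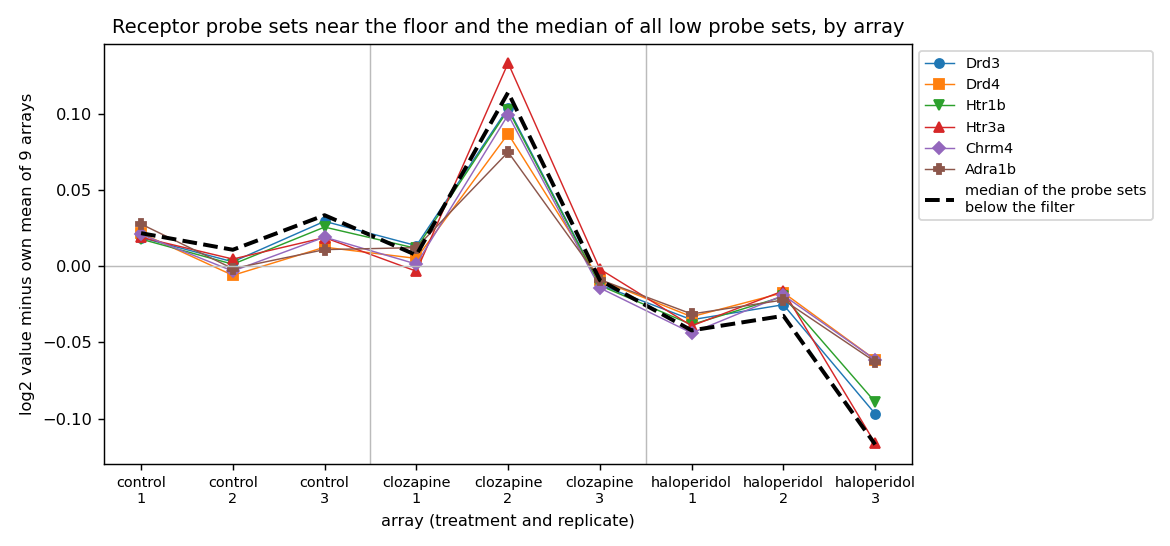
Log2 values of 6 near-floor receptor probe sets on each array minus their own mean of 9 arrays, with the median of the 4969 probe sets below the filter as a dashed line. All 6 peak at clozapine replicate 2 and are lowest at haloperidol replicate 3, as is the dashed line, which runs from 0.11 to -0.12.

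Other receptors for serotonin, noradrenaline and histamine were mostly near the floor too. Of 26 genes listed, 11 were analysed, with 13 probe sets, and 11 of the 13 were below the filter, while Htr1f and Htr2b were past it. Htr2b lay at -0.19 ± 0.09 log2 units (SE, limma adjusted p = 0.534) and Htr1f at -0.14 ± 0.07 (adjusted p = 0.579) with haloperidol against the controls, and at -0.0033 and -0.00070 with clozapine. Both averaged close to the filter, and their correlations with the profile of the low probe sets were 0.96 and 0.95. Between the drugs, Htr2b differed by 0.19 and Htr1f by 0.14 (limma adjusted p = 0.915 for both). In the 3 contrasts 0 of these 2 genes passed an adjusted p of 0.05 in limma, as did 0% of all probe sets.

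Of 22 genes that make, carry or break down monoamines and acetylcholine, 14 were analysed and 8 were past the filter. In limma 0 of 8 passed an adjusted p of 0.05 in any contrast, as did 0% of all probe sets. At an unadjusted p under 0.05 there were also 0 of 8. The shares of all probe sets were 0.939% for clozapine and 9.12% for haloperidol against the controls, and 3.64% between the drugs. The median difference from the controls was 0.04 with clozapine, where 7 of 8 were positive, and 0.06 with haloperidol, where 5 of 8 were. Of all probe sets, 49.5% and 46.4% were positive. Without control replicate 3 the medians of the 8 genes were 0.03 and -0.02, with 6 and 3 of 8 positive. Ache, which breaks down acetylcholine, lay 0.62 ± 0.44 log2 units (SE) above the controls with clozapine and 0.44 ± 0.44 with haloperidol (limma adjusted p = 1 and 0.803). Its values in the controls were 6.97, 6.73 and 5.04, against 6.60 to 6.99 in the drug-treated mice, and without control replicate 3 the differences were 0.02 and -0.17. The low value was again in control replicate 3, as for Chrm1.

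Among the other genes of this group, Qdpr and Pts, enzymes of the cofactor used to make monoamines, lay 0.05 and 0.05 above the controls with clozapine, and at -0.02 and 0.09 without control replicate 3. Maoa, which breaks down monoamines, lay 0.18 ± 0.16 above with haloperidol, or 0.05 without control replicate 3, in a probe set that averaged 7.33. Its other probe sets gave -0.19 and -0.27, but averaged 3.30, below the filter, and 3.72, close to it. Both were highest in clozapine replicate 2 and lowest in haloperidol replicate 3, as most low probe sets were. Bche, a second cholinesterase, lay at -0.17 ± 0.11 with haloperidol and 0.21 ± 0.11 higher with clozapine than with haloperidol, at levels of 3.26 to 3.80 close to the filter. Slc6a4, the serotonin transporter, differed by 0.105 between the drugs, at levels of 3.395 to 3.84 close to the filter. Its other probe set was below the filter, and the median difference of the low probe sets between the drugs was 0.10. Th, the first enzyme of dopamine synthesis, differed by -0.40 ± 0.52 in the same contrast. Th varied within the controls from 3.93 to 5.78.

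Of 43 genes for the G proteins, effectors and regulators that act below these receptors, 32 were analysed and 27 were past the filter. In limma 0 of 27 passed an adjusted p of 0.05 in any contrast, as did 0% of all probe sets. At an unadjusted p under 0.05 there were also 0 of 27. The shares of all probe sets were 0.939% for clozapine and 9.12% for haloperidol against the controls, and 3.64% between the drugs. With clozapine 8 were higher and 19 lower than in the controls, with a median of -0.04, and with haloperidol 12 were higher and 15 lower, with a median of -0.05. Of all probe sets, 49.5% and 46.4% were higher, with medians of -0.0013 and -0.02. Without control replicate 3, 10 and 9 of the 27 genes were higher. Between the drugs 15 were higher with clozapine and 12 lower, with a median of 0.05, where 56.4% of all probe sets were higher and the median was 0.03. Kcnj9, a potassium channel subunit opened by inhibitory G proteins, lay at -0.49 ± 0.27 log2 units (SE) with clozapine and at -0.57 ± 0.27 with haloperidol (limma adjusted p = 1 and 0.542). Without control replicate 3 this probe set, the brighter one, gave -0.78 and -0.86. The other probe set of Kcnj9 gave 0.11 and 0.18 over all arrays, of the opposite sign. It read 7.29, 6.56 and 5.72 in the controls, 6.28 to 7.20 with clozapine and 6.54 to 6.93 with haloperidol. The opposite sign thus rested on control replicate 3, the lowest array of that probe set.

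Rgs8, which speeds the shut-off of G proteins, lay at -0.15 ± 0.08 with clozapine and -0.19 ± 0.08 with haloperidol (limma adjusted p = 1 and 0.530). Adcy6, the gene closest in pattern to Chrm1, lay 0.35 ± 0.24 above the controls with clozapine, and 0.06 without control replicate 3. Gpsm1, a G protein regulator, lay at -0.16 ± 0.08 with haloperidol and 0.16 higher with clozapine than with haloperidol, at levels of 3.43 to 3.78. Gnai1, an inhibitory G protein subunit, was lower with clozapine than with haloperidol by -0.24 ± 0.12 in its brighter probe set (limma adjusted p = 0.915). Its other probe set gave -0.23, from 7.92, 6.78 and 6.84 with clozapine and 7.07, 7.02 and 8.15 with haloperidol. The sign in that other probe set thus rested on haloperidol replicate 3. Gnai3, another such subunit, gave -0.19 ± 0.13 in the same contrast.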

How the data were processed

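Values in the deposited table are on the log2 scale, 1 per probe set and array, and the submitters' processing notes name GCRMA as the authors' method. GCRMA corrects background from probe sequence, normalises the arrays and summarises probes, and its version was not given in the sources used here. It pulls unexpressed probe sets towards a floor. Of 12488 probe sets, 66 controls were left out. Symbols came from the platform annotation (10833 probe sets with 1 symbol, 396 with several, 1193 with none) and were updated through Entrez identifiers to RefSeq of GRCm38.p6, which held 10817.

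The 7453 probe sets with an average above the 40th percentile were fitted in limma 3.58.1 (R 4.3.3), with 1 mean per treatment over all 9 arrays, 6 residual and 2.03 prior degrees of freedom, and Benjamini-Hochberg adjustment over all of them. The tests were two-sided with a threshold of 0.05. The p-values measure the spread between 3 animals per group, and the number of arrays limits the precision. In lists, each gene is its probe set with the highest average, and the 3 genes with the lowest p per contrast are named. For each member past the filter the 3 genes of highest Pearson correlation are named. The members and lists were chosen with earlier results of these data known. On simulated data for clozapine against control, the fit recovered 70% of changes of 1 log2 unit and 96% of changes of 2 among 7453 probe sets, with 9 false calls. The simulated noise was independent between probe sets and arrays, without the array-wide differences of the real arrays. These shares are averages over probe sets, whose median SE was 0.15 in the real data. Drd2, Htr2c and Chrm1 had SEs of 0.18, 0.34 and 0.45, so the shares do not give the power for each receptor. Replicate numbers did not pair the animals: correlations of same-numbered arrays' deviations ranged from -0.597 to 0.697. Those of differently numbered arrays ranged from -0.66 to 0.661. Haloperidol replicate 3 gave 0.661 with clozapine replicate 1 and 0.638 with control replicate 1, and haloperidol replicate 1 gave 0.651 with clozapine replicate 3. The replicate block used the replicate numbers only, so sets of arrays that cross those numbers were not modelled. The alternatives were other filters, centring on the array median, quantile normalization, a trended robust prior, 6-array fits, a replicate block and each array left out. Centring on the low probe sets, with and without the filter, centring on the array median with no filter, and correlations without haloperidol replicate 3 were added after seeing the data.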

Additional observations from a re-analysis of the deposited data

How the results depend on the processing

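In 0 of 19 alternative settings did limma call any probe set in any contrast at an adjusted p of 0.05, receptors included, and the lowest adjusted p of a receptor was 0.282. With the replicate block the count of receptors called was 0 in each contrast, and the differences kept their values. An unadjusted p under 0.05 occurred for Chrm1 without control replicate 1 (0.012 for clozapine and 0.023 for haloperidol against the controls, and 0.028 in the F test), and for Drd4, at 0.043, with no filter and centring on the low probe sets.

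The differences from the controls of Chrm1, Htr2c and Drd2 kept their sign in all settings, with leave-one-out ranges of 0.35 to 1.32, 0.01 to 0.56 and 0.02 to 0.31 for clozapine and 0.17 to 1.14, 0.07 to 0.56 and 0.10 to 0.38 for haloperidol. Between the drugs the sign changed with single arrays, and the ranges were -0.02 to 0.34 for Chrm1, -0.34 to 0.21 for Htr2c and -0.14 to 0.06 for Drd2. Without haloperidol replicate 3, Htr2c was 0.20 and Drd2 0.062. Without clozapine replicate 3, Htr2c was 0.21, and without clozapine replicate 1, Chrm1 was -0.020. Centring on the array median moved the median haloperidol difference over all probe sets from -0.02 to 0.09 and that between the drugs from 0.03 to -0.07. The share of probe sets above the controls with haloperidol went from 46.4% to 67.6%, and Drd2 with haloperidol was then 0.38. With both kinds of centring the near-floor receptors changed sign for haloperidol against the controls and for clozapine against haloperidol, apart from Htr3a between the drugs, at 0.00090 with centring on the array median. Htr2c did not enter the filter at the 60th percentile. Centring takes the same value from all probe sets of an array, so it moved every difference of a contrast by the same amount. The source of the differences between arrays was not tested.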

Other observations

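Adra2c, an adrenergic receptor gene that was not among the 10 and was named after its values were seen, averaged 3.23 log2 units, below the filter, yet departed from the pattern of the other low probe sets. It read 3.87, 2.95 and 2.92 in the untreated mice, 3.33, 3.01 and 3.07 with clozapine, and 2.99, 3.08 and 3.85 with haloperidol. Control replicate 1 and haloperidol replicate 3 were high, and its correlation with the profile of the low probe sets was -0.42 over the 9 arrays, against a median of 0.98 for those probe sets. The ranges of the 3 treatments overlapped.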
